A study of Sus scrofa with 18 samples.

Results

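Backfat of Ningxiang pigs at 60 days of age was set against backfat of the same breed at 5 later stages. The libraries of 60 days were chosen by their age label, 3 of 18, and the other 15 were the 3 libraries each of 120, 180, 240, 300 and 360 days. Each library is 1 pig, given by the study as a castrated male, which 7 libraries did not show, as described below. Pigs were sampled where the fat of the shoulder was thickest, and no group received a treatment. Pigs of 1 stage were full sibs and pigs of different stages shared a single parent, so each stage is also a single family, and age and family cannot be told apart. The main comparison is the log2 fold change of 60 days over the mean of the 5 other stages, each stage weighing the same. It was tested for 19470 of the 27883 loci in the table, those with an FPKM (fragments scaled to transcript length and library size) of at least 0.5 in 3 or more of the 18 libraries.

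Subcutaneous fat of a young pig is still being built. Progenitor cells divide and become adipocytes, vessels grow into the lobules, and adipocytes fill with triglyceride made from glucose and from circulating fatty acids. Filled adipocytes secrete leptin and other hormones, and macrophages clear lipid and dead cells. Those roles order the results below: growth signals, fatty acid handling, secreted hormones, cell division, vessels and matrix, and immune cells.

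Total counts were 75123708, 77017967 and 77180515 at 60 days and 74077094 to 84236689 in the other 15 libraries. The 3 libraries of 60 days stood apart in composition. The 2 most counted loci carrying RF00017, the signal recognition particle RNA, took 1.54% to 1.88% of counts at 60 days and 2.13% to 10.2% in the other 15. The 10 most counted loci of each library took 9.37% to 10.2% at 60 days and 11.0% to 19.05% in the other 15. Both upper ends, 10.2% and 19.05%, were in 360 days replicate 3. The part of these shares in the results was not tested. ADIPOQ, PLIN1 and FABP4, which mark adipocytes, were high at every stage, with ADIPOQ at 226.1 to 276.7 FPKM at 60 days and 100.1 to 258.1 FPKM in the other 15. CIDEC and LEP, checked with them, were not uniform over age. CIDEC was at 63.1 to 75.7 FPKM at 60 days and at 77.2 to 149.5 FPKM in the other 15. LEP was at 0.809 to 1.44 FPKM at 60 days and at 0.663 to 24.1 FPKM in the other 15. The label of castrated males was not met in 7 libraries. Genes of the Y chromosome summed, as CPM (a count scaled by library size), to 0.226 and 0.803 in 60 days replicates 1 and 3, against 277.8 in replicate 2. They were low also in 120 days replicate 2, all 3 libraries of 180 days and 300 days replicate 2. An X-linked locus carrying RF01881 was at 21.1 to 39.3 FPKM in those 7 libraries and at 0.0190 to 0.0670 FPKM in all others. The 7 hold no pig of 240 or 360 days, so this difference is not spread evenly over age. Marker genes of liver summed to 6.50 to 16.0 FPKM at 60 days and to 7.02 to 1817 FPKM in the other 15, with 1817 in 240 days replicate 2 and 1161 in 300 days replicate 2. Marker genes of skeletal muscle summed to 11.9 to 29.2 FPKM at 60 days and to 11.4 to 519.8 FPKM in the other 15, with 519.8 in 180 days replicate 1 and 270.4 in 120 days replicate 2.

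At 60 days 239 loci were called higher and 185 lower, which is 1.23% and 0.95% of those tested and 2.18% together. A call needed an adjusted p of at most 0.05 (edgeR quasi-likelihood test, Benjamini-Hochberg) and a log2 fold change of at least 1 in size. At any fold, 718 loci (3.69%) were higher and 595 (3.06%) lower. The median log2 fold change of all tested loci was 0.02, with 51.8% above 0 and 48.2% below. Counts in every list below are to be read beside these shares. All 3 libraries of 60 days lay above all 15 others at 886 loci (4.55%) and below all 15 at 162 (0.832%). Of the 239 higher loci 118 carried a transcript type, and of the 185 lower loci 144 did. The remainder are assembled loci with no annotated transcript type. Each stage was also taken as a random block, which lets pigs of 1 stage resemble each other. That fit sets 60 days against the 15 others, so its blocks hold age differences among later stages as well as family. It called 93 loci higher and 19 lower. With 60 days replicate 1, 2 or 3 left out 198, 160 and 182 of the 424 calls stayed. Of the 424 calls 108 stayed with stage as a random block.

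Among the 70 called genes taken by the lists and the rule on large folds, 23 met the adjusted p with stage as a random block. Of the genes named below these were IGF1, PEG10, IGF2BP2, ACSL1, FABP3, HCAR1, HCAR2, GIPR, KDR, PNPLA3, C1QTNF1, CTSD, BHLHE40, BMX, HAP1, PGLYRP2, ADAMTS20, ssc-mir-148a, FAM71F1, SLC25A35, VWCE and FBN2. The other called genes of the lists and that rule did not meet it. The 11 libraries with Y-linked genes and the 7 low in them were also fitted apart. The 11 hold 1 pig of 60 days and none of 180 days, and the 7 hold none of 240 or 360 days. Each fit compares 60 days with the stages it holds, so stage makeup and Y-linked level change together. Within the 7, 1 of the 424 called loci had the opposite direction. In both sets 51 of the 70 kept a log2 fold change of at least 1 in size, and so did 239 of the 424. The 19 that did not keep it were KIF11, KIF20A, CENPE, MKI67, RRM2, ACVR1C, KDR, FABP3, DHCR7, NOTCH4, LMOD1, ATF3, CD9, ZFP36, AGT, METRNL, EGR2, EGR3 and HSPB1. All 70 kept their direction in both.

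**Figure D1:**
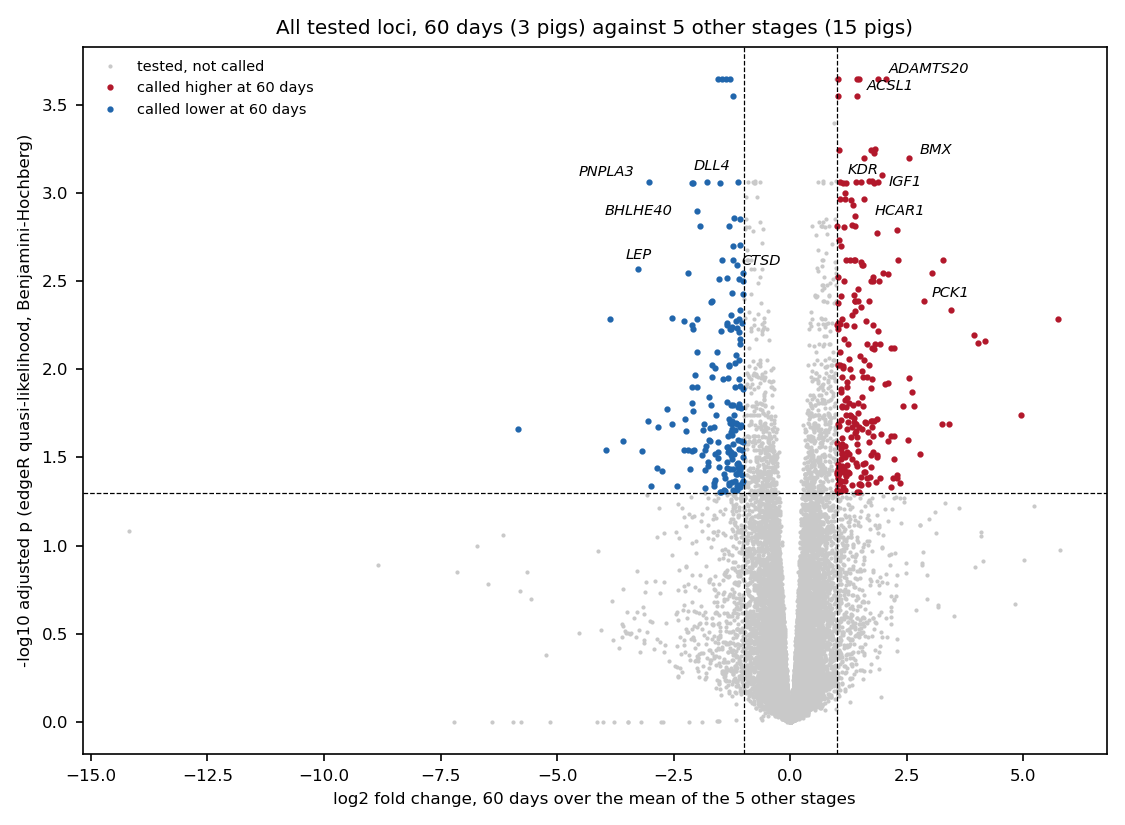
Each point is 1 of 19470 tested loci, with the log2 fold change of 60 days (3 pigs) over the mean of the 5 other stages (15 pigs) on the x axis and -log10 of the adjusted p on the y axis. Dashed lines mark the thresholds of the call, red points are the 239 loci called higher and blue points the 185 called lower.

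Growth signals were led by IGF1, the ligand through which growth hormone drives tissue growth (MSTRG.16794, chromosome 5, 81776406 to 81858964 in Sscrofa11.1). IGF1 stood at 16.2, 13.7 and 11.6 FPKM in the pigs of 60 days, and at 1.22, 3.37 and 6.15 FPKM in the other 15 (lowest, median and highest). The groups did not overlap, and the log2 fold change was 1.89 (standard error 0.25, adjusted p = 0.000868). It was 1.95 without the 7 libraries low in Y-linked genes and 1.75 within them. In bulk tissue, more cells that make a transcript and more transcript per cell cannot be told apart, here and in every result below.

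The other genes of this axis did not follow IGF1. Of 17 tested genes of the growth hormone and IGF axis, IGF1 was called higher and STC2 lower, 6 had a fold change above 0, and the median was -0.17. Over all loci 1.23% were called higher, 0.95% lower, and 51.8% had a fold change above 0. GHR, the growth hormone receptor, was at 16.9, 12.6 and 16.1 FPKM at 60 days and at 9.11 to 16.9 FPKM in the other 15 (log2 fold change 0.07, adjusted p = 0.774). IGF1R, the receptor of IGF1, had a log2 fold change of -0.02 and IGF2, the fetal ligand, one of -0.28, and neither passed the test. STC2, a secreted glycoprotein that blocks the protease freeing IGF1 from its binding proteins, was at 0.176, 0.108 and 0.359 FPKM at 60 days and at 0.179 to 1.57 FPKM in the other 15. The groups overlapped slightly (log2 fold change -1.73, standard error 0.423, adjusted p = 0.0252), and the call was lost without 60 days replicate 2 (adjusted p = 0.134) and without replicate 1.

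Among genes that are imprinted or best known from the fetus 2 were called higher at 60 days. Of 13 tested, PEG10 and IGF2BP2 were called higher and 0 lower, against 1.23% of all loci called higher. A fold change above 0 was seen in 12, against 51.8% of all loci, and the median was 0.50. PEG10, an imprinted gene derived from a retrotransposon (MSTRG.22545, chromosome 9), was at 2.50, 2.94 and 4.2 FPKM at 60 days and at 0.231, 1.01 and 2.21 FPKM in the other 15 (lowest, median and highest). The groups did not overlap (log2 fold change 1.66, standard error 0.317, adjusted p = 0.00715). IGF2BP2, which binds IGF2 mRNA, was at 1.54, 1.42 and 1.602 FPKM at 60 days and at 0.385 to 1.28 FPKM in the other 15 (log2 fold change 1.12). Its relative IGF2BP3 and NNAT, an imprinted proteolipid, met the adjusted p at log2 fold changes of 0.75 and 0.87, under the fold of a call. The call of PEG10 was lost without 60 days replicate 3 (adjusted p = 0.0668) and that of IGF2BP2 without replicate 1 or 3 (adjusted p up to 0.0622).

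Genes that take up, activate, oxidise and re-esterify fatty acids held some of the clearest differences. ACSL1, which joins long-chain fatty acids to coenzyme A (MSTRG.8223, chromosome 15, 45863101 to 45933952), was at 91.0, 103.0 and 94.0 FPKM at 60 days. In the other 15 libraries it was at 17.6, 35.9 and 47.1 FPKM (lowest, median and highest). The 60-day pigs lay close together and far above all others (log2 fold change 1.42, standard error 0.159, adjusted p = 0.000281), and the call held in all 18 fits that each left out 1 library. Genes described here and below that met the adjusted p under the fold of a call were picked after their values were seen. The study names ACSL1 as a gene of this stage, so its choice is not independent of these libraries.

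FABP3, a fatty acid carrier of the cytosol, was at 239.8, 239.8 and 213.9 FPKM at 60 days and at 73.6 to 150.0 FPKM in the other 15. The log2 fold change of 1.02 lies at the threshold, so the call was kept in 9 of 18 fits without 1 library while the adjusted p was at most 0.0433 in all of them. Of 17 tested genes of fatty acid uptake, binding and activation ACSL1 and FABP3 were called higher and 0 lower, with a median of 0.20. The share of all loci called higher was 1.23%. LPL, which frees fatty acids from circulating lipoproteins, was at 203.8, 204.0 and 214.6 FPKM at 60 days and at 156.6 to 365.2 FPKM in the other 15 and did not pass the test.

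Enzymes of fatty acid oxidation held 1 call and several smaller differences. Of 32 tested genes 25 had a fold change above 0 (51.8% over all loci), the median was 0.22, and 1 was called higher (1.23% over all loci). In 10 of the 32 all 3 libraries of 60 days lay above all 15 others, and in 0 below, against the 4.55% and 0.832% of all loci given above. A further 6 met the adjusted p with higher levels at folds under 2: CPT2, ACADVL, ACADL, HADHA, ECI1 and ACOT4. HADHA, a subunit of the mitochondrial trifunctional protein, was at 33.7, 27.2 and 34.1 FPKM at 60 days and at 15.6 to 24.4 FPKM in the other 15 (log2 fold change 0.54, standard error 0.124, adjusted p = 0.0201). ACADVL, the dehydrogenase of very long acyl chains, was at 31.9, 36.9 and 35.4 FPKM at 60 days and at 15.8 to 27.9 FPKM in the other 15 (log2 fold change 0.55). ACOX2, a peroxisomal oxidase of branched chains and bile acid precursors, met the adjusted p in the other direction (log2 fold change -0.54). Loci with several gene names hold 8 of these 32 genes, CPT2, ECI1 and ACOX2 among them, and their reads may belong to a neighbour.

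PCK1 had the largest fold among the lipid genes called higher. It makes phosphoenolpyruvate, from which adipocytes build the glycerol backbone of triglyceride (MSTRG.10108, chromosome 17, 57930356 to 57938817). It was at 53.9, 38.3 and 99.7 FPKM at 60 days and at 0.598, 7.61 and 24.9 FPKM in the other 15 (lowest, median and highest). The 60-day pigs varied widely but lay above all others, and the log2 fold change was 2.86 (standard error 0.497, adjusted p = 0.00409). The call held in all 18 fits without 1 library, with an adjusted p of 0.0475 at the most, but not with stage as a random block (adjusted p = 0.125). Of 14 tested genes of glyceroneogenesis and glycerol handling PCK1 alone was called, the median was 0.09, and GK and GPD1 met the adjusted p. GK, which phosphorylates glycerol, was at 7.73, 9.41 and 8.82 FPKM at 60 days and at 2.19 to 6.43 FPKM in the other 15 (log2 fold change 0.89, adjusted p = 0.0374).

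Assembly of triglyceride held no call, and 2 of its enzymes lay above all later pigs. Of 12 tested genes 0 were called, 3 had an unadjusted p below 0.05, and the median was 0.09. LPIN1, the phosphatase that makes diacylglycerol, was at 31.4, 29.3 and 20.9 FPKM at 60 days and at 8.85 to 19.5 FPKM in the other 15 (log2 fold change 0.89, adjusted p = 0.00949). DGAT1, which completes triglyceride, was at 6.91, 6.84 and 7.70 FPKM at 60 days and at 2.86 to 6.07 FPKM in the other 15 (log2 fold change 0.71, adjusted p = 0.00333). Neither pair of groups overlapped, although both folds are under that of a call.

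Enzymes that make fatty acids held no call at the locus taken for each gene. Of 19 tested genes 0 were called and 0 met the adjusted p in edgeR, 8 had an unadjusted p below 0.05, and the median was 0.24. Outside the loci taken, 2 untyped pieces named ELOVL5, a fatty acid elongase, were called higher at log2 fold changes of 1.105 and 1.122. FASN, fatty acid synthase, was at 1142, 1190 and 866.4 FPKM at 60 days and at 680.5, 1425 and 1963 FPKM in the other 15 (lowest, median and highest). Its log2 fold change was -0.48 (standard error 0.21, adjusted p = 0.182). The groups overlapped throughout. Adipogenic transcription factors were likewise near level, with 0 of 18 called, 6 at an unadjusted p below 0.05 and a median of 0.02. PPARG, the factor that drives fat cell formation, was at 7.25, 9.43 and 8.06 FPKM at 60 days and at 4.19 to 8.32 FPKM in the other 15. Of 25 genes of oxidative phosphorylation 0 were called and 7 had an unadjusted p below 0.05 (median 0.09). Of 12 of thermogenesis and mitochondrial biogenesis 0 were called and 2 had one (median 0.14). DESeq2 and limma-voom called 0 genes in each of these 5 lists, triglyceride assembly included. Of 20 genes of cholesterol synthesis DHCR7 alone was called, at a log2 fold change of 1.003 (median -0.12). DHCR7 overlaps NADSYN1, which lies on the other strand and was called in the same direction, and its call was kept in 6 of 18 fits without 1 library.

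Genes of lipolysis and the lipid droplet split in both directions, with a median of 0.00 over 24 tested genes. HCAR1, the lactate receptor by which insulin-driven glycolysis restrains lipolysis, was at 12.99, 9.02 and 11.6 FPKM at 60 days. It was at 1.88, 2.997 and 7.75 FPKM in the other 15 (lowest, median and highest), with no overlap (log2 fold change 1.59, standard error 0.221, adjusted p = 0.00107). Its neighbour HCAR2, the receptor for niacin and the ketone body beta-hydroxybutyrate, was at 7.56, 6.91 and 12.5 FPKM at 60 days and at 1.72, 3.07 and 4.14 FPKM in the other 15 (log2 fold change 1.52, standard error 0.243, adjusted p = 0.00246). These are neighbours on 1 strand of chromosome 14 (30104688 to 30116876 and 30117074 to 30119292), so reads may have been shared between them.

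PNPLA3, a lipase-like protein of the droplet surface (MSTRG.15784, chromosome 5, 5075434 to 5092642), stood well below the later stages. It was at 1.55, 2.53 and 1.64 FPKM at 60 days and at 5.15, 15.2 and 26.4 FPKM in the other 15 (lowest, median and highest). No library overlapped, and the log2 fold change was -3.03 (standard error 0.4, adjusted p = 0.000868), -2.47 without the 7 libraries low in Y-linked genes and -3.23 within them. PNPLA3 was the only gene called lower against each of the 5 other stages taken singly, and TARDBP, which encodes an RNA-binding protein of the nucleus and was singled out after its values were seen, the only one called higher. That count of 2 was between 0 and 8 in the fits that each left out 1 library. TARDBP was at 26.7, 22.8 and 17.5 FPKM at 60 days and at 5.38, 7.12 and 9.61 FPKM in the other 15 (log2 fold change 1.48, standard error 0.144, adjusted p = 0.000226). CIDEC, which fuses droplets into 1 large droplet, met the adjusted p (log2 fold change -0.61) with 63.1 to 75.7 FPKM at 60 days and 77.2 to 149.5 FPKM in the other 15. PLIN1, the coat of the droplet, had a log2 fold change of 0.02 at a locus that also carries PEX11A.

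**Figure D2:**
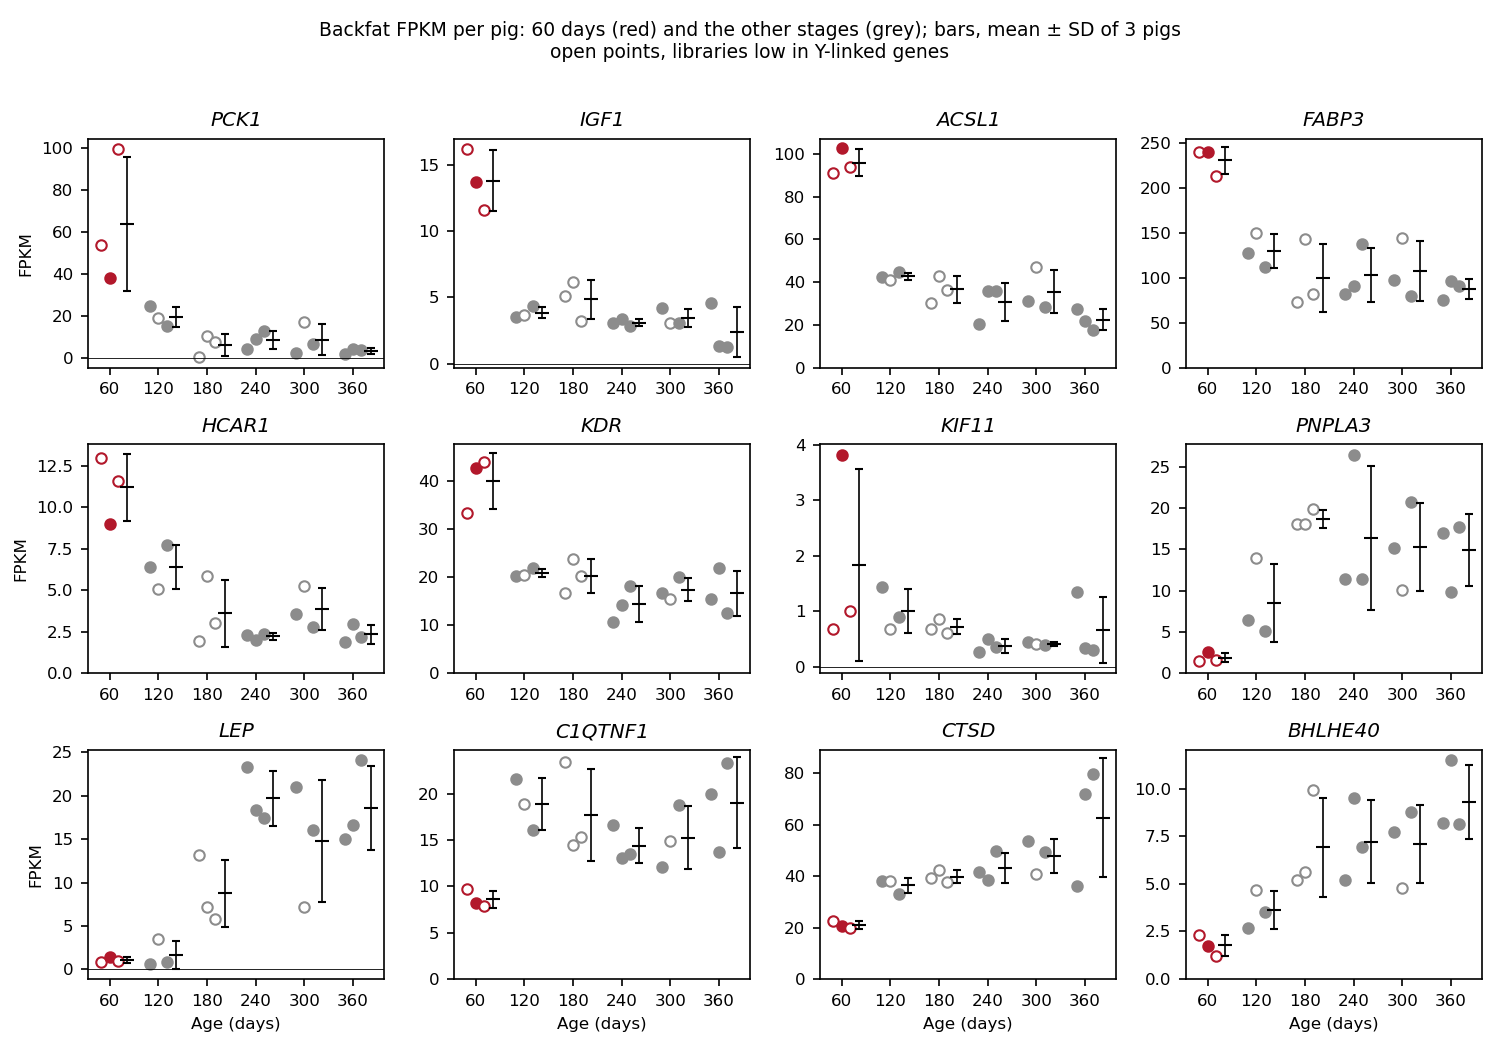
FPKM of 12 genes (y axis, linear) in each pig by age in days (x axis), with 60 days in red at the left and the mean and SD of 3 pigs as black bars. IGF1, ACSL1, FABP3, HCAR1 and KDR at 60 days lie above all other pigs, KIF11 is high in 1 pig of 60 days, and PNPLA3, C1QTNF1, CTSD and BHLHE40 lie below all other pigs, while LEP at 60 days overlaps 120 days.

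Of the adipokines and secreted hormones several were called lower at 60 days. Of 25 tested genes 6 were called lower and 0 higher, 18 had a fold change below 0, and the median was -0.41. Over all loci 0.95% were called lower and 48.2% had a fold change below 0. The list summed to 341.2 to 410.8 FPKM at 60 days, within the 290.2 to 483.1 FPKM of the other 15. LEP, the satiety hormone leptin, was at 0.809, 1.44 and 1.002 FPKM at 60 days and at 0.663, 15.01 and 24.1 FPKM in the other 15 (lowest, median and highest). The overlap came from 120 days, where the mean was 1.68 FPKM, while the means of 180 to 360 days ran between 8.74 and 19.7 FPKM. The log2 fold change was -3.26 (standard error 0.53, adjusted p = 0.00271), and with stage as a random block the adjusted p was 0.195.

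AGT, the precursor of angiotensin, was at 57.0, 22.6 and 45.9 FPKM at 60 days and at 60.6 to 152.1 FPKM in the other 15 (log2 fold change -1.22). C1QTNF1, a relative of adiponectin, was at 9.66, 8.24 and 7.88 FPKM at 60 days and at 12.1 to 23.4 FPKM in the other 15 (log2 fold change -1.10, adjusted p = 0.00515). INHBB, which forms activin B, and METRNL, a secreted factor of fat and muscle, were lower by log2 fold changes of -2.10 and -1.22. INHBB was at 0.969, 0.138 and 0.235 FPKM at 60 days and at 0.475 to 5.52 FPKM in the other 15, with the overlap from replicate 1 alone. The call of AGT was lost without 60 days replicate 2 (adjusted p = 0.142) or 3, that of INHBB without replicate 3 (adjusted p = 0.0849) or 2, and that of METRNL without any of the 3 (adjusted p up to 0.168). ADIPOQ, adiponectin, did not pass the test (log2 fold change 0.34, adjusted p = 0.356).

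Receptors for hormones showed 1 call among 19 tested genes (median -0.06). GIPR, the receptor for the gut hormone GIP, was at 2.12, 1.902 and 1.501 FPKM at 60 days and at 0.293, 0.766 and 1.05 FPKM in the other 15 (lowest, median and highest). The groups did not overlap (log2 fold change 1.22, standard error 0.288, adjusted p = 0.0217), and the call was lost without any 1 of the 3 pigs of 60 days (adjusted p up to 0.105). ACVR1C, the activin receptor ALK7 found on adipocytes, was at 20.5, 14.9 and 17.9 FPKM at 60 days and at 3.09 to 14.9 FPKM in the other 15 (log2 fold change 1.096), while its ligand gene INHBB was lower as given above. Both are members of a list of 24 genes of TGF-beta, BMP and activin signalling, where they were the 2 calls and the median was -0.12. The share of all loci called either way was 2.18%. The call of ACVR1C was lost without any 1 of the 3 pigs (adjusted p up to 0.0984). RSPO3, a secreted enhancer of Wnt signalling, was the 1 call among 17 Wnt genes, with 3.63, 2.68 and 3.38 FPKM at 60 days and 0.448 to 2.83 FPKM in the other 15 (log2 fold change 1.32). Its call too was lost without any 1 of the 3 (adjusted p up to 0.0964).

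Genes of cell division held 6 calls, which rested on 1 pig of 60 days. Of 30 tested genes 6 were called higher and 0 lower, 29 had a fold change above 0, and the median was 0.82. The shares of all loci were 1.23% called higher and 51.8% with a fold change above 0. The 6 called genes were KIF11 and KIF20A, motors of the mitotic spindle, CENPE, a motor of the kinetochore, MKI67, the Ki-67 antigen, RRM2, which makes deoxynucleotides, and PCLAF, a partner of PCNA. KIF11 was at 0.676, 3.82 and 1.01 FPKM at 60 days and at 0.262, 0.506 and 1.44 FPKM in the other 15 (lowest, median and highest). Replicate 2 stood alone, and the other 2 pigs lay within the range of the older ones. In 26 of the 30 genes replicate 2 was the highest of all 18 libraries, and the list summed to 37.7, 76.3 and 39.0 FPKM at 60 days and to 25.1 to 45.7 FPKM in the other 15. Without 60 days replicate 2 all 6 calls were lost, with adjusted p of 0.673 for KIF11, 0.496 for KIF20A, 0.347 for CENPE, 0.672 for MKI67, 0.454 for RRM2 and 0.245 for PCLAF. KIF11 and MKI67 kept their calls in 6 and 8 of the 18 fits without 1 library. The median of the list was 0.23 without replicate 2. Among the 7 libraries low in Y-linked genes, which include 60 days replicates 1 and 3, it was 0.29, and in the 11 others, where replicate 2 is the only pig of 60 days, it was 1.54. In the same replicate 2, 10 of 19 interferon response genes and 8 of 13 lymphocyte genes were the highest of all libraries. The part of other cell types in the difference was not tested.

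**Figure D3:**
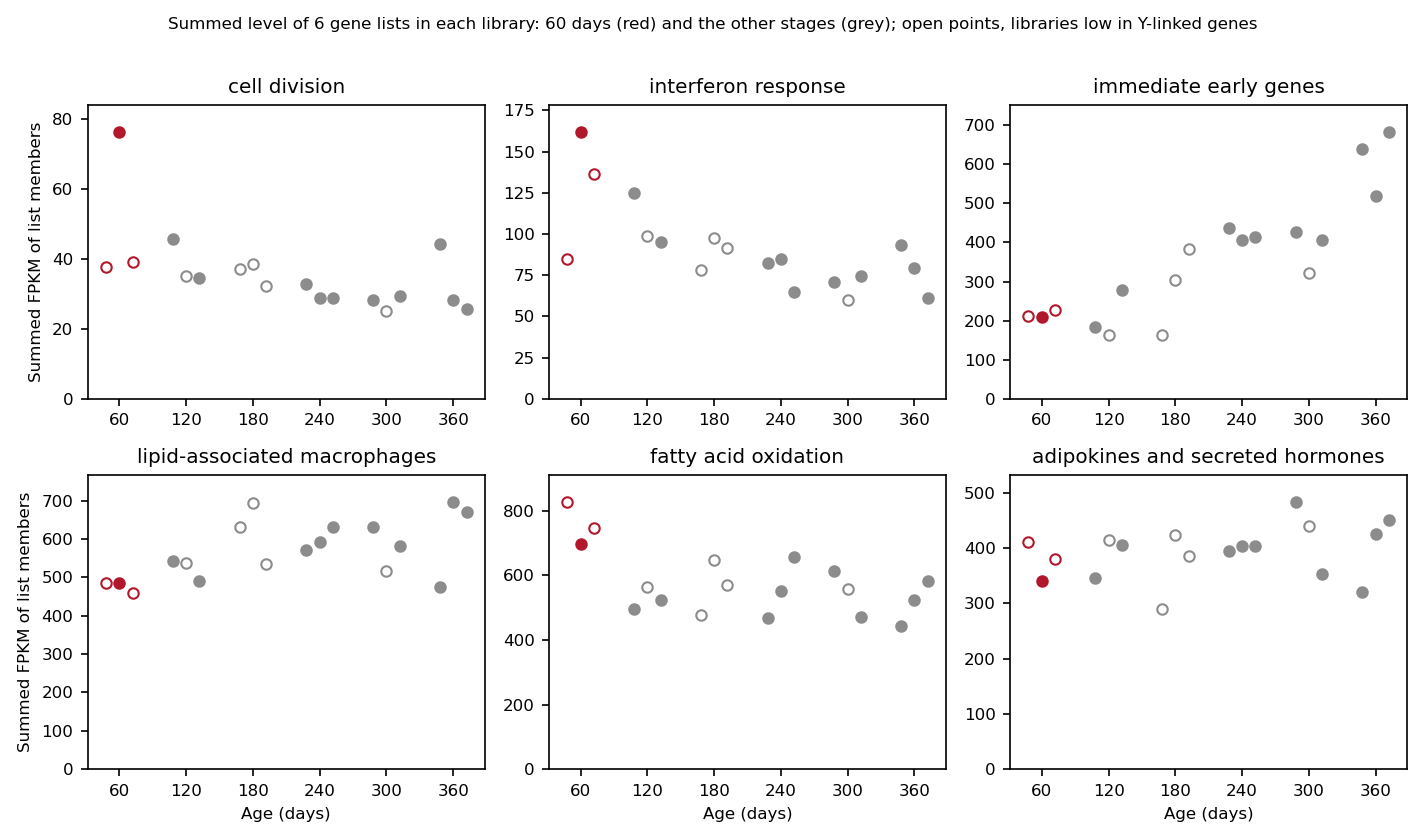
Summed FPKM of the members of 6 gene lists (y axis, linear from 0) in each library by age in days (x axis), with 60 days in red at the left and open points for libraries low in Y-linked genes. Cell division is high in 1 pig of 60 days (76.3 FPKM), fatty acid oxidation in all 3, and immediate early genes are near 211 to 227 FPKM at 60 days and 517.7 to 683.0 FPKM at 360 days.

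Progenitor and fibroblast markers held no call. Of 16 tested genes 0 were called by edgeR, DESeq2 or limma-voom and 3 had an unadjusted p below 0.05. A fold change above 0 was seen in 1, against 51.8% of all loci, and the median was -0.32. PDGFRA, the receptor that marks fat progenitors, was at 7.53, 9.49 and 8.37 FPKM at 60 days and at 6.68 to 15.6 FPKM in the other 15 (log2 fold change -0.15, adjusted p = 0.674). The exception was EBF2, a factor of adipocyte progenitors and brown fat, at 6.82, 6.80 and 6.48 FPKM at 60 days and 2.32, 3.76 and 4.54 FPKM in the other 15 (lowest, median and highest). Its groups did not overlap (log2 fold change 0.77, standard error 0.155, adjusted p = 0.00968).

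Among vessel genes a receptor and its downstream ligand went opposite ways. KDR, the main receptor for VEGF on endothelium (MSTRG.21104, chromosome 8, 41808753 to 41856379), was at 33.4, 42.8 and 44.1 FPKM at 60 days. In the other 15 it was at 10.8, 18.1 and 23.9 FPKM (lowest, median and highest), with no overlap. The log2 fold change was 1.06 (standard error 0.139, adjusted p = 0.000868), and it was 0.98, just under the fold of a call, without 60 days replicate 3. DLL4, the Notch ligand that VEGF induces in tip cells, was at 1.49, 0.963 and 1.43 FPKM at 60 days and at 1.36, 5.04 and 8.501 FPKM in the other 15 (log2 fold change -1.80, standard error 0.237, adjusted p = 0.000868). Its mean at 120 days was 1.71 FPKM, next to that of 60 days, and those of 180 to 360 days were 3.78 to 6.23 FPKM. NOTCH4, a Notch receptor of endothelium, was at 5.80, 3.69 and 6.45 FPKM at 60 days and at 5.48 to 15.6 FPKM in the other 15 (log2 fold change -1.04), and its call was lost without 60 days replicate 2, where the fold change was -0.83.

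Most endothelial markers did not pass the test. Of 28 tested genes KDR was called higher and NOTCH4 lower, 9 had a fold change above 0 (51.8% over all loci), and the median was -0.12. The list summed to 260.0 to 285.6 FPKM at 60 days and 202.4 to 328.2 FPKM in the other 15. PECAM1, a general endothelial marker on a locus of several names, had a log2 fold change of -0.08. Of 23 angiogenic ligands and guidance genes DLL4 and PGF were called lower and 0 higher (median -0.16), against 0.95% of all loci called lower. PGF, placental growth factor, was at 0.697, 0.401 and 0.631 FPKM at 60 days and at 0.776 to 2.83 FPKM in the other 15 (log2 fold change -1.44), a call lost without 60 days replicate 2 (adjusted p = 0.0827). VEGFA itself had a log2 fold change of -0.15 and did not pass the test. Of 16 genes of pericytes and smooth muscle LMOD1, a muscle actin nucleator, was called lower (log2 fold change -1.04, adjusted p = 0.0441), a call kept in 5 of 18 fits without 1 library.

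Matrix genes held few calls. Of 28 genes of fibrillar collagen and interstitial matrix 1 was called lower and 0 higher, with a median of -0.24. MGP, which keeps soft tissue from calcifying, was at 19.8, 17.6 and 17.8 FPKM at 60 days and at 16.1, 39.1 and 76.5 FPKM in the other 15 (lowest, median and highest). The groups overlapped at their edge (log2 fold change -1.25, adjusted p = 0.0195), and the call was lost without any 1 of the 3 pigs (adjusted p up to 0.0984). DCN, the proteoglycan decorin, met the adjusted p at -0.79, while SPARC and COL5A2, a collagen-binding glycoprotein and a fibrillar collagen chain, met it at 0.58 and 0.55. COL1A1, the main fibrillar chain, was at 385.2, 827.6 and 759.5 FPKM at 60 days and at 180.7 to 1805 FPKM in the other 15 (log2 fold change 0.26, adjusted p = 0.749). Of 14 basement membrane genes 0 were called by any of the 3 tools and 8 had an unadjusted p below 0.05. The laminin chains LAMB1 and LAMA4, which lie around adipocytes and vessels, met the adjusted p at 0.54 and 0.50, and LAMB2 at -0.55.

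In the list of lipid-associated macrophages the calls were all on the lower side. Of 13 tested genes 5 were called lower and 0 higher, against 0.95% of all loci called lower. A fold change above 0 was seen in 3, and the median was -0.66. In 4 genes the 60-day pigs lay below all 15 other libraries, against 0.832% of all loci. CTSD, a protease of the lysosome (MSTRG.10872, chromosome 2, 1184804 to 1198471), was at 22.8, 20.4 and 19.7 FPKM at 60 days and at 33.0, 40.7 and 79.7 FPKM in the other 15 (lowest, median and highest). The groups were far apart (log2 fold change -1.23, standard error 0.19, adjusted p = 0.00201), and the call held in all 18 fits without 1 library. CTSL, a second lysosomal protease, was at 3.43, 2.30 and 1.08 FPKM at 60 days and at 3.63, 6.84 and 10.6 FPKM in the other 15 (log2 fold change -1.67). GPNMB, a membrane glycoprotein of lipid-laden macrophages, was at 4.48, 7.17 and 5.69 FPKM at 60 days and at 7.27, 12.5 and 50.5 FPKM in the other 15 (log2 fold change -1.59). The groups came close for GPNMB and did not overlap for any of these 3 genes.

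The remaining calls of that list were LGALS3, the lectin galectin-3, and CD9, a tetraspanin, with log2 fold changes of -1.35 and -1.08. The calls of GPNMB and LGALS3 were lost without any 1 of the 3 pigs (adjusted p up to 0.0925 and 0.158), that of CTSL without replicate 2 or 3 (up to 0.0617), and that of CD9 without replicate 1 or 3 (up to 0.111) or 240 days replicate 1. LGALS3 lost its call also without 120 days replicate 1. CTSD, CTSL and CD9 are also made by adipocytes and other cells. TREM2, the receptor that defines these macrophages, was at 0.254, 0.411 and 0.341 FPKM at 60 days and at 0.0726 to 1.12 FPKM in the other 15 and did not pass the test (log2 fold change -0.61, adjusted p = 0.506).

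General macrophage markers held 2 calls. Of 19 tested genes 2 were called lower and 0 higher, against 0.95% of all loci called lower. A fold change below 0 was seen in 17, against 48.2% of all loci, and the median was -0.65. TYROBP, the signalling adaptor of TREM2, was at 2.12, 2.63 and 2.55 FPKM at 60 days and at 2.71, 5.38 and 12.8 FPKM in the other 15 (log2 fold change -1.34, adjusted p = 0.0277). F13A1, the coagulation factor XIII chain of resident macrophages, was at 0.920, 1.27 and 1.65 FPKM at 60 days and at 1.16 to 8.49 FPKM in the other 15 (log2 fold change -1.503, adjusted p = 0.0499). The call of TYROBP was lost without any 1 of the 3 pigs (adjusted p up to 0.119) and that of F13A1 in 16 of 18 fits without 1 library. CD163 and CD68, textbook markers, had log2 fold changes of -0.36 and -0.05 and did not pass, CD68 at a locus of 7 names. The list summed to 52.2 to 83.2 FPKM at 60 days and to 46.1 to 131.7 FPKM in the other 15. In 8 of the 19 genes 60 days replicate 1 was the lowest of all 18 libraries, and replicates 2 and 3 were so in 0.

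A further 4 genes called lower were chosen after their values were seen and stand for no group. CSF1, the growth factor of macrophages, at its protein-coding locus was at 2.78, 3.18 and 3.14 FPKM at 60 days and at 3.67, 6.83 and 12.4 FPKM in the other 15 (log2 fold change -1.28, adjusted p = 0.000226). TLR4, the receptor for bacterial lipopolysaccharide, was at 2.54, 2.96 and 1.84 FPKM at 60 days and at 3.95 to 7.68 FPKM in the other 15 (log2 fold change -1.31). NPC1, which moves cholesterol out of lysosomes, was at 5.61, 5.44 and 6.55 FPKM at 60 days and at 7.31 to 16.3 FPKM in the other 15 (log2 fold change -1.15). CTSZ, a lysosomal protease, was at 10.4, 11.4 and 9.93 FPKM at 60 days and at 14.8 to 39.2 FPKM in the other 15 (log2 fold change -1.09). None of these 4 genes overlapped between the groups. The calls of CSF1, TLR4 and NPC1 held in all 18 fits without 1 library and that of CTSZ in 17, being lost without 60 days replicate 3 (adjusted p = 0.0536). With stage as a random block TLR4 and NPC1 met the adjusted p, and CSF1 and CTSZ did not (0.0716 and 0.12).

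Interferon response genes all had a fold change above 0, against 51.8% of all loci, and none was at the level of a call. Of 19 tested genes 0 were called by edgeR, DESeq2 or limma-voom, 9 had an unadjusted p below 0.05, 1, USP18, met the adjusted p, and the median was 0.48. USP18, which removes the ubiquitin-like ISG15, was at 2.78, 5.84 and 5.18 FPKM at 60 days and at 1.37, 2.10 and 4.01 FPKM in the other 15 (log2 fold change 0.94, standard error 0.164, adjusted p = 0.00423). Replicate 1 lay within the range of the others. The list summed to 84.6, 162.0 and 136.2 FPKM at 60 days and to 60.0 to 125.1 FPKM in the other 15. Of 13 lymphocyte genes edgeR called 0 and DESeq2 1, with 5 at an unadjusted p below 0.05 (median 0.10, and 0.61 without loci of several names). Of 13 genes of neutrophils and acute inflammation edgeR called 0 and DESeq2 4, lower, with 6 at an unadjusted p below 0.05 (median -0.70).

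Of the immediate early genes, which cells switch on fast after stress or growth factors, 4 were called lower at 60 days. All 19 tested immediate early genes had a fold change below 0, against 48.2% of all loci, with a median of -0.82. EGR2, EGR3, ATF3 and ZFP36 were the calls, against 0.95% of all loci called lower. The lowest stage was 60 days in 6 of the 19. ZFP36, which destroys cytokine mRNAs, was at 7.96, 7.96 and 7.86 FPKM at 60 days and at 5.85, 17.7 and 38.5 FPKM in the other 15 (lowest, median and highest). Its mean at 120 days was 7.46 FPKM, at the level of 60 days, and at 360 days 31.5 FPKM. EGR2, a zinc finger factor, was at 0.572, 0.684 and 0.594 FPKM at 60 days and at 0.678 to 2.61 FPKM in the other 15 (log2 fold change -1.26, adjusted p = 0.00589). The list summed to 210.6 to 226.8 FPKM at 60 days and to 162.4 to 683.0 FPKM in the other 15. Over the libraries of 120 and 180 days it ran from 162.4 to 382.4 FPKM. Its median was -0.27 within the 7 libraries low in Y-linked genes, which hold no pig of 240 or 360 days. At those ages the list summed to 405.4 to 437.6 FPKM and 517.7 to 683.0 FPKM. The calls of ATF3 and ZFP36 were lost without any 1 of the 3 pigs (adjusted p up to 0.129 and 0.0817) and that of EGR3 without replicate 2 (0.0697).

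A pair of small heat shock proteins and 1 clock gene were also lower. CRYAB, a chaperone, was at 27.1, 13.4 and 13.2 FPKM at 60 days and at 15.6, 53.9 and 162.1 FPKM in the other 15 (log2 fold change -2.04, adjusted p = 0.0108). HSPB1, its relative HSP27, was at 46.4, 40.3 and 38.6 FPKM at 60 days and at 47.7 to 244.9 FPKM in the other 15 (log2 fold change -1.27). They were the 2 calls among 10 heat shock genes (median -0.43), against 0.95% of all loci called lower. The calls were lost without 60 days replicate 2, at adjusted p of 0.0732 and 0.0847, and without replicate 3, and that of HSPB1 also without replicate 1. BHLHE40, a repressor within the clock that also responds to hypoxia, was at 2.31, 1.76 and 1.22 FPKM at 60 days and at 2.69, 6.92 and 11.5 FPKM in the other 15, with no overlap. Its log2 fold change was -2.01 (standard error 0.286, adjusted p = 0.00126), and the call held in all 18 fits without 1 library. It was the 1 call among 20 clock genes, whose median was -0.22.

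Markers of other tissues gave 1 call. UCHL1, a ubiquitin hydrolase of neurons, was at 0.884, 1.14 and 2.23 FPKM at 60 days and at 1.45, 5.79 and 12.8 FPKM in the other 15 (log2 fold change -2.11, standard error 0.387, adjusted p = 0.0056), while the median of the 8 tested genes of Schwann cells and neurons was 0.10. The 13 liver genes had a median of -2.79, the 14 muscle genes -0.55, 1 epidermal gene 0.67, 3 red blood cell genes -0.18, 4 lymph node genes 0.34 and 3 Y-linked genes 0.62. Of these edgeR, DESeq2 and limma-voom called 0, and an unadjusted p was below 0.05 for 0 liver, 1 muscle, 1 epidermal, 0 red blood cell, 1 lymph node and 0 Y-linked genes.

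**Figure D4:**
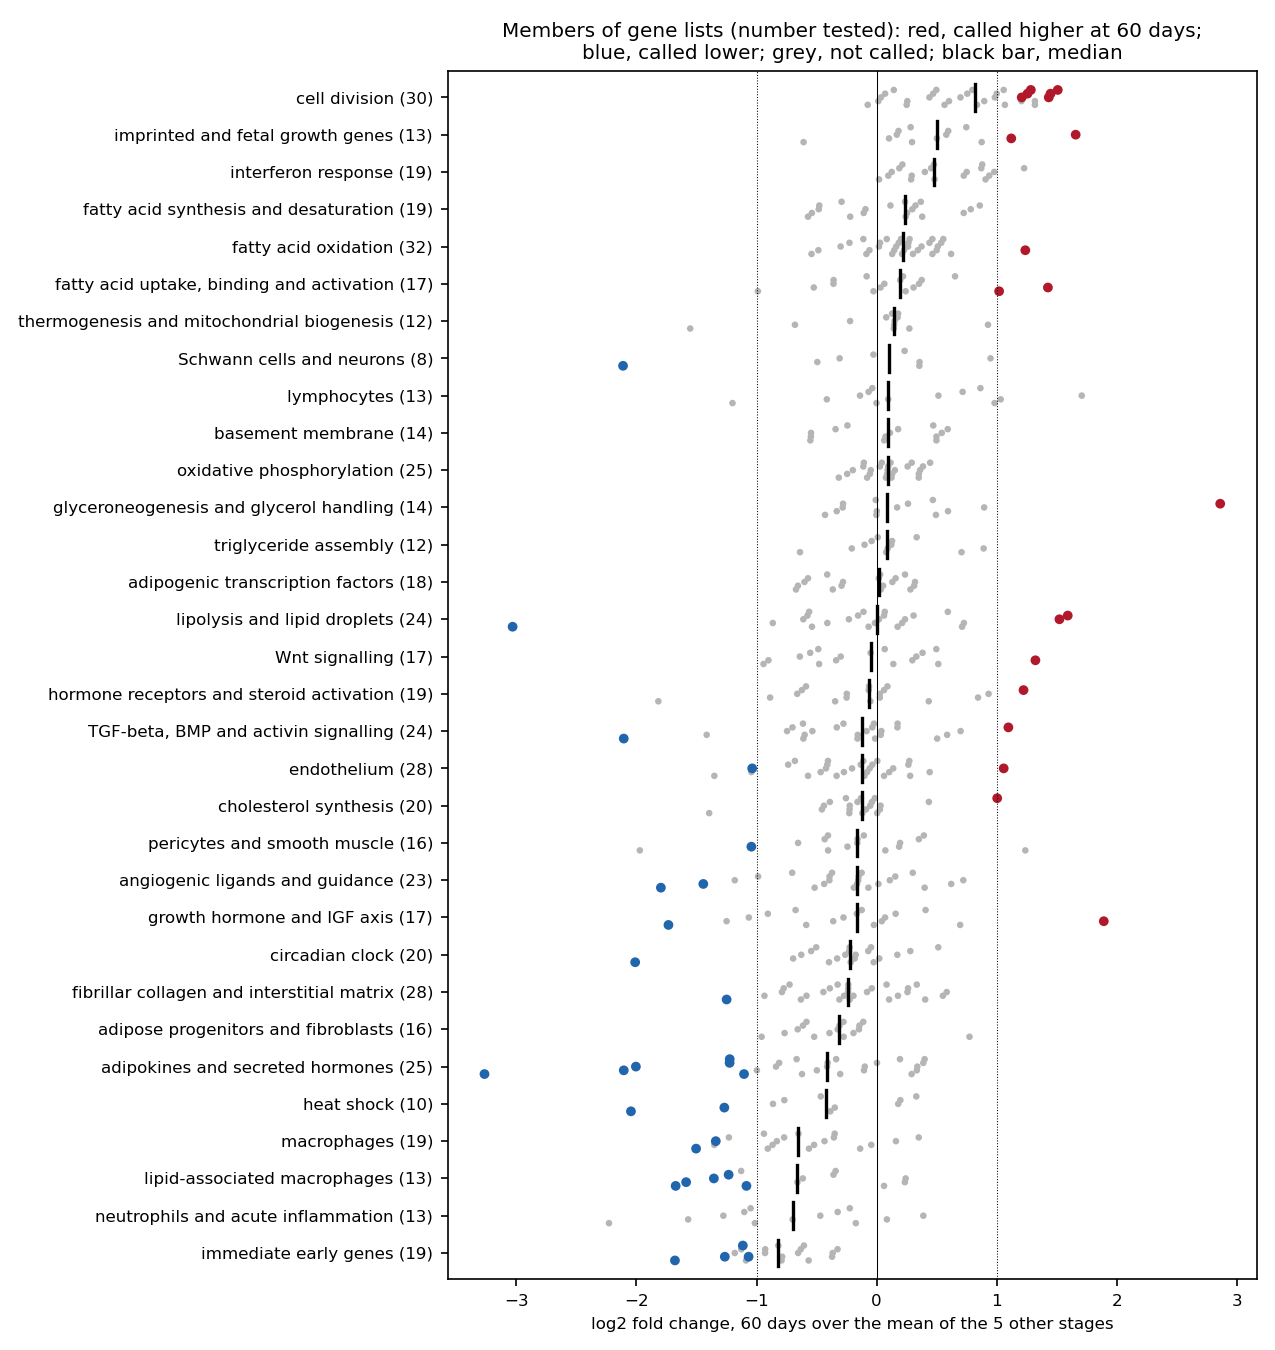
Log2 fold change of 60 days over the mean of the 5 other stages (x axis) for the tested members of each list with at least 8 tested genes other than liver and muscle (y axis, number tested in parentheses, ordered by median). Red members were called higher, blue lower, and black bars are medians, from 0.82 for cell division to -0.82 for immediate early genes.

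Genes chosen for large folds with no overlap between the groups included several outside these lists. BMX, a tyrosine kinase of endothelium and bone marrow (MSTRG.23115, chromosome X), was at 1.70, 1.85 and 0.713 FPKM at 60 days and at 0.0871, 0.228 and 0.456 FPKM in the other 15 (log2 fold change 2.54, standard error 0.314, adjusted p = 0.000637). ADAMTS20, a secreted metalloprotease, was at 4.28, 4.47 and 4.25 FPKM at 60 days and at 0.435, 1.03 and 1.87 FPKM in the other 15 (log2 fold change 1.89, standard error 0.198, adjusted p = 0.000226). The 3 pigs of 60 days were nearly equal. FBN2, the fibrillin of microfibrils in developing tissue, was at 1.74, 2.54 and 2.33 FPKM at 60 days and at 0.178 to 1.47 FPKM in the other 15 (log2 fold change 1.74).

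The locus that carries the precursor of ssc-mir-148a (chromosome 18, 46415213 to 46418370) was at 1.33, 1.602 and 1.70 FPKM at 60 days and at 0.195, 0.367 and 0.974 FPKM in the other 15 (log2 fold change 1.80, adjusted p = 0.000591), and the mature microRNA was not measured by these libraries. HAP1, which binds huntingtin, PGLYRP2, an amidase that cuts peptidoglycan, SLC25A35, a mitochondrial carrier, VWCE, a protein with von Willebrand factor C domains, and FAM71F1 were higher by log2 fold changes of 2.31, 2.23, 1.77, 1.75 and 1.79. SPAG17, a gene of cilia, was higher by 1.72, and its call was kept in 8 of 18 fits. The call of PGLYRP2 was lost without 60 days replicate 2 (adjusted p = 0.0854) and that of VWCE without any 1 of the 3 pigs (adjusted p up to 0.0963).

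On the lower side CBS, the first enzyme that turns homocysteine towards cysteine, was at 0.883, 0.532 and 0.682 FPKM at 60 days and at 1.14, 3.15 and 5.31 FPKM in the other 15 (log2 fold change -2.20, standard error 0.36, adjusted p = 0.00285). BDKRB2, the bradykinin receptor, was at 0.297, 0.267 and 0.363 FPKM at 60 days and at 0.501, 1.31 and 2.54 FPKM in the other 15 (log2 fold change -2.12, standard error 0.285, adjusted p = 0.000879). SOCS3, the inhibitor of cytokine and leptin receptors, was at 2.44, 2.61 and 2.60 FPKM at 60 days and at 2.67, 9.65 and 38.2 FPKM in the other 15 (log2 fold change -2.08, adjusted p = 0.0174). Its pigs of 60 days were nearly equal and those of the other stages spread widely.

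PRELP, a proteoglycan that anchors basement membrane, was at 5.23, 9.01 and 7.06 FPKM at 60 days and at 9.77 to 62.6 FPKM in the other 15 (log2 fold change -1.87). GALNT15, which starts O-linked sugar chains, PROCR, the receptor of protein C, ITGA8, an integrin chain, MOCOS, which activates molybdenum enzymes, KLHL31 and WDR17 were lower by log2 fold changes of -1.99, -1.72, -1.72, -2.09, -1.75 and -1.99. Of these, PRELP, SOCS3, PROCR, ITGA8 and KLHL31 lost their calls without any 1 of the 3 pigs (adjusted p up to 0.105, 0.0839, 0.105, 0.114 and 0.136), WDR17 without replicate 2 or 3 (up to 0.0574) and MOCOS without replicate 2 (0.0502).

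A further 2 genes called higher were chosen after their values were seen and stand for no group. MET, the receptor of hepatocyte growth factor, was at 2.61, 3.03 and 3.94 FPKM at 60 days and at 0.486, 1.02 and 1.91 FPKM in the other 15 (log2 fold change 1.46, standard error 0.247, adjusted p = 0.00352). TBX3, a T-box factor, was at 4.47, 3.62 and 5.74 FPKM at 60 days and at 0.902 to 3.51 FPKM in the other 15 (log2 fold change 1.32). MET and TBX3 did not overlap between the groups. The call of MET held in all 18 fits without 1 library, and that of TBX3 was lost without 60 days replicate 3 (adjusted p = 0.085). With stage as a random block MET met the adjusted p (0.0215) and TBX3 did not (0.0502).

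The differences were smallest against 120 days and largest against 360 days. The stage of 360 days includes replicate 3, the library with the highest RF00017 share, whose part was not tested. Over the 239 higher loci the median log2 fold change was 0.92 against 120 days, 1.31 against 180, 1.59 against 240, 1.41 against 300 and 1.69 against 360 days. Over the 185 lower loci it was -1.06, -1.13, -1.47, -1.44 and -1.85 at the same ages. The sign of these values is fixed by how the loci were called, and the 5 comparisons share the pigs of 60 days. In 237 of the 239 and 175 of the 185 loci the mean of 60 days was the extreme of the 6 stages. The opposite extreme was at 360 days in 107 of the higher and 103 of the lower loci.

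Taken stage by stage, 11 loci were called higher and 34 lower against 120 days (0.0565% and 0.175% of those tested), 77 and 43 against 180 days (0.395% and 0.221%), 189 and 201 against 240 days (0.971% and 1.03%), 84 and 127 against 300 days (0.431% and 0.652%), and 398 and 597 against 360 days (2.04% and 3.07%). At 120 days a median of 75.5% of the difference between 60 days and the mean of 180 to 360 days was present for the higher loci and 54.0% for the lower. The share was under 50% in 27 higher and 88 lower loci, and over 100% in 33 and 44. The mean used for the calls included 120 days, which favours loci with a large share. IGF1, whose mean was 13.8 FPKM at 60 days, was at 3.84 FPKM at 120 days and 2.39 to 4.84 FPKM at later stages. CTSD was at 21.0 FPKM at 60 days, 36.5 at 120 days and 62.6 at 360 days, and LEP was among the lower genes whose level at 120 days was still close to that of 60 days.

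**Figure D5:**
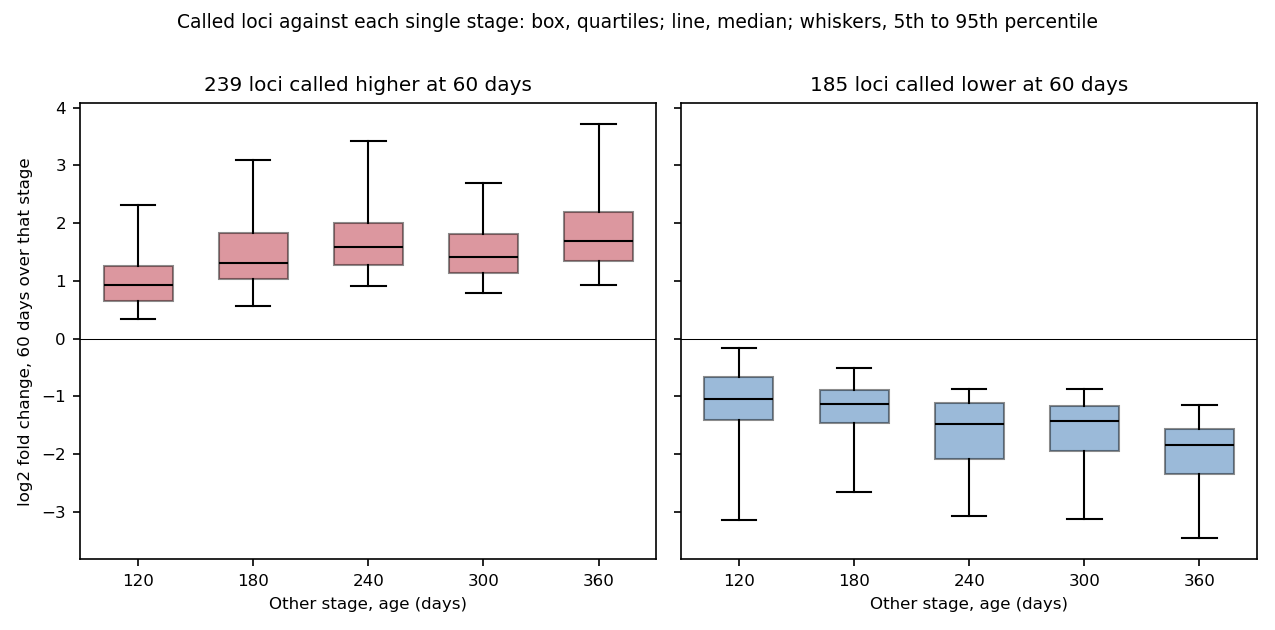
Log2 fold change of 60 days over each other stage (y axis) by the age of that stage in days (x axis), for the 239 loci called higher and the 185 called lower against the mean of the 5 stages. Boxes are quartiles, lines medians and whiskers the 5th to 95th percentile, and the medians run from 0.92 at 120 days to 1.69 at 360 days on the left and from -1.06 to -1.85 on the right.

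Part of the calls are pieces of 1 transcribed region. Of the 424 called loci 116 had another called locus in the same direction within 20 kb, and of the 162 called loci without a transcript type 71 did. ACSL1, ELOVL5, IGF1 and LPIN1 were among the genes with such assembled pieces. Beside the typed ACSL1 locus 2 untyped ones were higher by log2 fold changes of 1.85 and 1.77. At LPIN1, whose typed locus had a fold under that of a call, 2 untyped pieces under its name were called at 1.36 and 1.43. The unnamed loci MSTRG.14338 and MSTRG.14339, which overlap the piece at 1.36, were called at 3.04 and 3.28. Whether the counting used strand is not given in the sources used here, so reads of overlapping genes cannot be assigned.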

How the data were processed

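RNA of shoulder backfat from 18 pigs was depleted of ribosomal RNA and sequenced as paired reads, 1 library a pig. Per the labels and methods, the authors trimmed reads with Cutadapt 1.9, aligned them to Sscrofa 11.1 with Hisat2 2.0.4 and assembled loci with StringTie 1.3.4 on Ensembl 96. The authors deposited read counts and FPKM for 27883 loci. How the counts were made, and whether strand was used, is not given in the sources used here.

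The deposited counts were fitted with edgeR 4.0.16 in R 4.3.3 (quasi-likelihood, TMM scaling, 6 stage groups, 18 libraries, 12 residual degrees of freedom) on 19470 loci with at least 0.5 FPKM in 3 libraries. The contrast is 60 days minus the mean of 5 stage coefficients. Benjamini-Hochberg adjustment ran over all 19470 loci, and a call needed an adjusted p of at most 0.05 and a log2 fold change of at least 1 in size. Standard errors were taken as the size of the log2 fold change over the root of its F statistic. FPKM values describe levels. The p-values treat pigs as independent although those of 1 stage are full sibs. The within-stage correlation of the random block fit was estimated at 0.14, and it holds age differences among the later stages as well as family. Group medians over lists are descriptions. On simulated data the fit called 82 of 100 genes changed by 2 on the log2 scale, 78 of 100 changed by 1.5, and 6 of 19270 unchanged. The simulated libraries were drawn independently, with no resemblance of sibs and no differences among the later stages. These counts therefore do not give the error rate of the real comparison.

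Named genes were the called members of 38 gene lists, up to 15 genes a direction with the largest folds, at least 1 FPKM and no overlap between the groups, the first 4 measured genes of a list, and ACSL1. Some genes that the rule takes are not reported here. Members and lists were chosen with earlier results of these data known. Loci with 2 or more names number 1443. Of 5380 loci named by an Ensembl ID alone 947 were matched to symbols through that ID, and 24 list genes were placed by RefSeq coordinates. Alternatives covered scaling, filters, DESeq2 1.42.0, limma 3.58.1, blocks, the 7 libraries low in Y-linked genes, single libraries left out and, chosen after seeing the data, loci of several names left out. Depth was 74077094 to 84236689 counts a library.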

Additional observations from a re-analysis of the deposited data

How the results depend on the processing

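The count of loci called higher and lower (239 and 185) was 74 and 37 with limma on log2(FPKM + 1), 122 and 94 with the 15 other libraries as 1 group, 93 and 19 with stage as a random block, 12 and 7 without the 7 libraries low in Y-linked genes, 3 and 3 within those 7, and 718 and 595 by adjusted p alone. Limma-voom with library weights called 360 higher, and DESeq2 343 lower. Leaving out 1 library gave 112 to 273 higher and 71 to 212 lower, and leaving out 1 of 60 days 112 to 160 and 71 to 90. The 2 loci called against each of 5 stages became 0 without a filter, 1 with the replicate block, 0 with Y-linked level added as covariate, and 0 to 8 without 1 library. The cause of these shifts was not tested. No named gene reversed, while 51 of 70 named calls kept a fold of 2 in both sets of libraries by Y-linked level. Of 70 called named genes 25 kept the call without any 1 library, and 23 met the adjusted p with stage as a random block. With the replicate block 228 loci were higher and 168 lower. Equal replicate numbers did not pair pigs across stages (mean correlation of their deviations 0.01 over 45 pairs, lowest -0.09, with 7 of 18 libraries closest to one of their own number). The median of all loci was 0.13 with limma on log2(FPKM + 0.1). The muscle list median was 1.23 without the 7 libraries. With 3 pigs at 60 days, 1 family a stage, small folds of weakly expressed genes cannot be resolved.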
